A study of Homo sapiens with 6 samples.

Results

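The 6 genes described here, APP, DMPK, HBB, RB1, CDKN2A and CFTR, are textbook examples of genes next to a site of CTCF, the zinc-finger protein that shields promoters from enhancers and, with cohesin, holds chromatin loops. CTCF binding was read by sequencing of immunoprecipitated chromatin from HCT-116, an established line of human colon cancer cells that received no treatment. The populations were wild-type cells (WT) and the clones D3 and E4, which the labels describe only as carrying a CTCF mutation. The series title names a distal CTCF site and the gating of MYC, and no label places the mutation. Each population had 1 CTCF library, D3 and E4 are 1 clone each, and the 3 libraries made without antibody were not analysed here. The deposited broad peaks numbered 57935 for D3, 39434 for E4 and 38645 for WT. Joining peaks that overlap between lists gave 60235 regions on the genome build hg19. Of these, 18 lay within 10 kb of a member's gene body or, for HBB, within a 110 kb window over the beta-globin cluster. The genes were chosen by their names, with these peak lists known, and APP was selected on its numbers of peaks in D3, E4 and WT, which differ most between the clones, so those numbers are given as a description. The depth of each library is unknown, and with 1 library per population no difference has a replicate check.

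An insulator acts by standing between an enhancer and a promoter or by stopping the spread of silent chromatin, and CTCF bound in a suitable orientation also stops the cohesin that extrudes chromatin loops. At APP, the amyloid precursor gene, CTCF binds just upstream of the start and acts on the promoter itself. At DMPK, the myotonic dystrophy kinase gene, CTCF sites lie on either side of the CTG repeat that expands in the disease. The beta-globin cluster, silent outside red blood cells, is bounded by the CTCF sites 5′ HS5 and 3′ HS1. At CFTR, the chloride channel gene mutated in cystic fibrosis, CTCF insulators flank the gene on both sides. RB1 and CDKN2A are tumour suppressor genes whose promoter or upstream boundary has been described as bound by CTCF.

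Promoter sequences of APP and CDKN2A are shown first, because a peak of every library lay over these starts, APP carries its best-known CTCF site there, and both held a match to the motif described next. The sequences are the 250 bases upstream of the start in RefSeq on GRCh38.p14, minus strand, printed 5′ to 3′. Capitals mark matches on either strand to CC, any 3 bases and AGGGG, a shortened form of the CTCF core chosen so that it takes in the published APP site.
APP, inner start: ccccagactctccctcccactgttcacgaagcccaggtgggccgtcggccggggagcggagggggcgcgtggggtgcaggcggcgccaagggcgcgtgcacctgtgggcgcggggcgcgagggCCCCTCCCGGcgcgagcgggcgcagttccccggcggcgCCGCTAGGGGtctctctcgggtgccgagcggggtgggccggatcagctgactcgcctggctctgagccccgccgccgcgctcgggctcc
CDKN2A, outer start: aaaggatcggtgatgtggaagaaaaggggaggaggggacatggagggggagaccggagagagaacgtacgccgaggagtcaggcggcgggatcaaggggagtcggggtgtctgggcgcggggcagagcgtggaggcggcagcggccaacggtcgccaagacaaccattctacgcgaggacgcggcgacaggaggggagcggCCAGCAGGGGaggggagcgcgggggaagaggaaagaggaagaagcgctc

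The APP sequence held CCGCTAGGGG from −89 to −80, counted from its start, which is where the published CTCF site of this promoter lies. It also held a reverse match, CCCCTCCCGG, from −127 to −118. The CDKN2A sequence held CCAGCAGGGG from −49 to −40. A match to this motif was present in 8.63% of the 35116 upstream windows of the same length in the table. A second motif, CC, any 3 bases, AG, any 2 bases and GGC, which can overlap the first, was present in 8.90% of them and in neither of the sequences shown. RefSeq lists an outer APP start as well, 358 bp upstream, and counted from there the −89 to −80 match lies 269 to 278 bp into the gene. Of the 6 genes, 5 were in the table, RB1 with an inner start alone, so the RB1 promoter itself was not read. The windows of DMPK, CFTR and RB1 held no match to either motif. The same was true of the outer APP start, the inner CDKN2A start and CDKN2B, the gene next to CDKN2A. Yet the region at the CDKN2B start was called in all 3 lists, at the 96.6th percentile of WT. The windows hold only bases upstream of a start, and the peaks there are wider. Whether a match goes along with peak rank was therefore not tested.

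All 3 libraries had a peak over the APP start. The merged region was chr21:27540966-27544239, and it reached from 793 bp upstream to 2480 bp downstream of the outer start. The peak of WT reached 36 bp upstream and 2001 bp downstream, that of D3 341 bp and 2480 bp, and that of E4 793 bp and 2135 bp. Each of them therefore spans the distance at which the sequence match lies. The −log10 q, the peak caller's significance, was 16.01 in WT, 35.4 in D3 and 40.7 in E4. These values move with sequencing depth and background, so each peak was also ranked as a percentile of −log10 q within its own list. The APP promoter peak stood at the 92.4th percentile of WT, the 93.3rd of D3 and the 97.4th of E4, near the top of every list by this measure. Ranked by fold over background instead, it stood lower, at the 77.4th percentile of WT, the 85.9th of D3 and the 96.9th of E4. It was also broad, with 2038 bp in WT, 2822 bp in D3 and 2929 bp in E4, beside list medians of 639 bp, 873 bp and 750 bp.

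At the other end of APP the libraries differed more. A region at the 3′ end, chr21:27253653-27255004, centred 1.47 kb inside the gene's end, was called in all 3 lists at the 62.2nd percentile of WT, the 88.6th of D3 and the 81.0th of E4. A second region in the body, chr21:27267803-27268588, lay 15.3 kb inside the end and was called in all 3 lists at lower ranks, the 31.2nd, 47.1st and 32.2nd percentile. A region 8.95 kb beyond the end, chr21:27242835-27244995, was called in D3 and WT and not in E4. Its D3 peak was 2161 bp wide and stood at the 44.1st percentile, its WT peak was 584 bp wide and stood at the 17.0th, and the nearest E4 peak was 7.47 kb away. Over the genome, E4 lacked 34.4% of WT peaks in the same decile of WT ranks. The next region outward, chr21:27234418-27235555, 17.9 kb beyond the end and thus outside the window, was again called in all 3 lists, at the 66.3rd, 91.8th and 49.3rd percentile of WT, D3 and E4.

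D3 alone had 3 further peaks in the APP body, and these set its peak number apart. They lay 20.8 kb, 79.3 kb and 139 kb downstream of the start, at chr21:27522535-27522780, chr21:27464010-27464363 and chr21:27404554-27405030. They were narrow, 246 bp, 354 bp and 477 bp, and stood at the 9.73rd, 22.6th and 47.3rd percentile of D3, with folds over background of 3.57, 3.97 and 6.30. No peak of WT or E4 lay within 18.5 kb of any of them. Peaks that D3 alone has are frequent at such ranks: 82.8% of D3 peaks in the weakest decile of −log10 q, 55.8% in the third and 17.7% in the fifth had no peak of E4 or WT over them. The peak with the highest rank of the 3 was the one that stayed when the lists were held to 38645 peaks each, the length of the WT list.

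**Figure D1:**
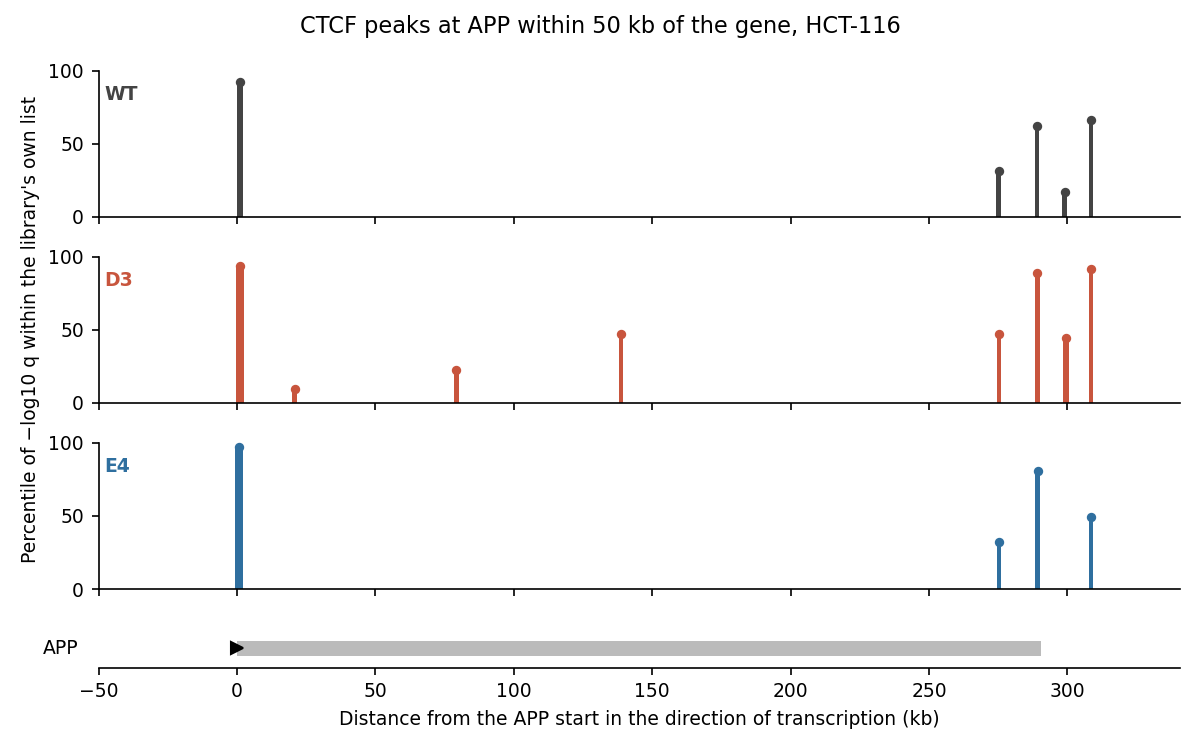
CTCF peaks of WT, D3 and E4 within 50 kb of APP. The x axis is the distance from the APP start in kb in the direction of transcription, with the gene body as a grey bar. The height of each bar is the percentile of the peak's −log10 q within its own list, a dot marks its top, and narrow peaks are drawn wider than they are. The promoter peak stands above the 92nd percentile in each library, and the 3 peaks between 20.8 and 139 kb appear in D3 alone.

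The peak number of the APP window was thus 7 in D3, 3 in E4 and 4 in WT, or 5, 3 and 4 with lists of equal length. Keeping only peaks whose −log10 q was at least 5 gave 5, 2 and 2, and E4 no longer lay below WT. With whole lists such a spread is common in this series. When the genome was divided into 8717 bins with a peak, each as long as the APP window (311 kb), D3 lay above and E4 below WT in 19.3% of them, and D3 held at least 4 peaks more than E4 in 19.9%. Among the 924 bins with 4 WT peaks the same shares were 20.1% and 19.5%, and the median was 6 peaks in D3 and 4 in E4. With lists of equal length D3 lay above and E4 below WT in 3.33% of 8390 bins, and D3 held at least 2 peaks more than E4 in 8.71%, as at APP. Bins with 4 WT peaks were not counted apart for these lists. Because APP was selected on its peak numbers, the shares do not measure how unusual it is. For chromosome 21 as a whole the lists of D3, E4 and WT gave 580, 362 and 385 peaks. E4 overlapped 77.7% of its WT peaks, less than the 84.3% to 87.9% on the chromosomes of the other 5 genes, and the part of this in the APP numbers was not tested.

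The DMPK repeat site and a second site in the gene were called in every library. The region over the CTG repeat, chr19:46272844-46274466, had a −log10 q of 8.30 in WT, 21.01 in D3 and 17.1 in E4. It stood at the 70.3rd percentile of WT, the 79.8th of D3 and the 79.0th of E4, and its width was 1313 bp, 1342 bp and 1347 bp. The 3 peaks cover the repeat, and the broad calls do not separate the CTCF sites on its flanks. The second region, chr19:46281781-46283107, ranked higher, at the 92.4th percentile of WT, the 93.3rd of D3 and the 86.4th of E4. It was centred 3.37 kb inside the gene, and RefSeq lists an inner DMPK start 2871 bp inside the outer one on its own build. No region called in 1 or 2 lists lay within 10 kb of DMPK.

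At the beta-globin cluster the 2 boundary sites gave the only peaks of the 110 kb window. Both the HBB gene itself and the embryonic gene HBE1 lay between them without a peak. The region at 5′ HS5, chr11:5312218-5313232, 64.4 kb upstream of the HBB start, was called in all 3 lists. Its −log10 q was 8.999 in WT, 19.6 in D3 and 8.69 in E4, at the 73.7th, 77.6th and 54.4th percentile. The region at 3′ HS1, chr11:5225747-5226463, 22.2 kb downstream of the HBB start, was present in D3 and E4 but missing from WT. It stood at the 48.6th percentile of D3 with a width of 717 bp and at the 19.99th of E4 with a width of 331 bp. The nearest WT peak was 79.95 kb away. In the whole lists, WT lacked 36.1% of D3 peaks in the same decile and 43.8% of E4 peaks in theirs. The 2 sites lay 86.6 kb apart from middle to middle.

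At CFTR, the upstream insulator was called in all 3 lists and the downstream insulator in the clones alone. The upstream insulator, 20.8 kb before the start and so outside the 10 kb window, was called in all 3 lists as chr7:117098808-117099600, at the 44.97th percentile of WT, the 67.0th of D3 and the 52.1st of E4. The downstream insulator, chr7:117313646-117314705, centred 5.46 kb beyond the gene's end, was called in D3 and E4 and not in WT, whose nearest peak was 41.1 kb away. Its −log10 q was 8.38 in D3 and 4.48 in E4, at the 48.9th and 30.4th percentile. WT lacked 36.1% of D3 peaks and 16.4% of E4 peaks in the same deciles. A neighbouring region 1.48 kb beyond the end, chr7:117309777-117310626, was likewise shared by the clones alone, with weak values, the 32.4th percentile of D3 and the 2.37th of E4. Further downstream, 47.2 kb beyond the end, chr7:117355265-117356653 was called in all 3 lists. It stood at the 59.9th percentile of WT, the 68.4th of D3 and the 49.2nd of E4, so WT did have a peak on this flank.

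Inside CFTR all peaks were weak. A region 1.29 kb past the start, chr7:117120942-117121679, was called in D3 and E4 at the 31.7th and 24.3rd percentile. A region at 25.5 kb, chr7:117145204-117145846, was called in D3 at the 28.3rd percentile and in WT at the 0.779th, which makes it the lowest-ranked WT peak of the 6 windows, and E4 lacked it. A peak at 52.6 kb, chr7:117172421-117172758, was called in D3 alone at the 19.4th percentile. The numbers of peaks in the 10 kb window, 5 in D3, 3 in E4 and 1 in WT, depended on list length. With lists of equal length they were 1, 3 and 1, so that D3 fell from the largest number to the same number as WT. D3 was then cut at a −log10 q of 5.12, and of its 5 peaks the one at the downstream insulator was kept.

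**Figure D2:**
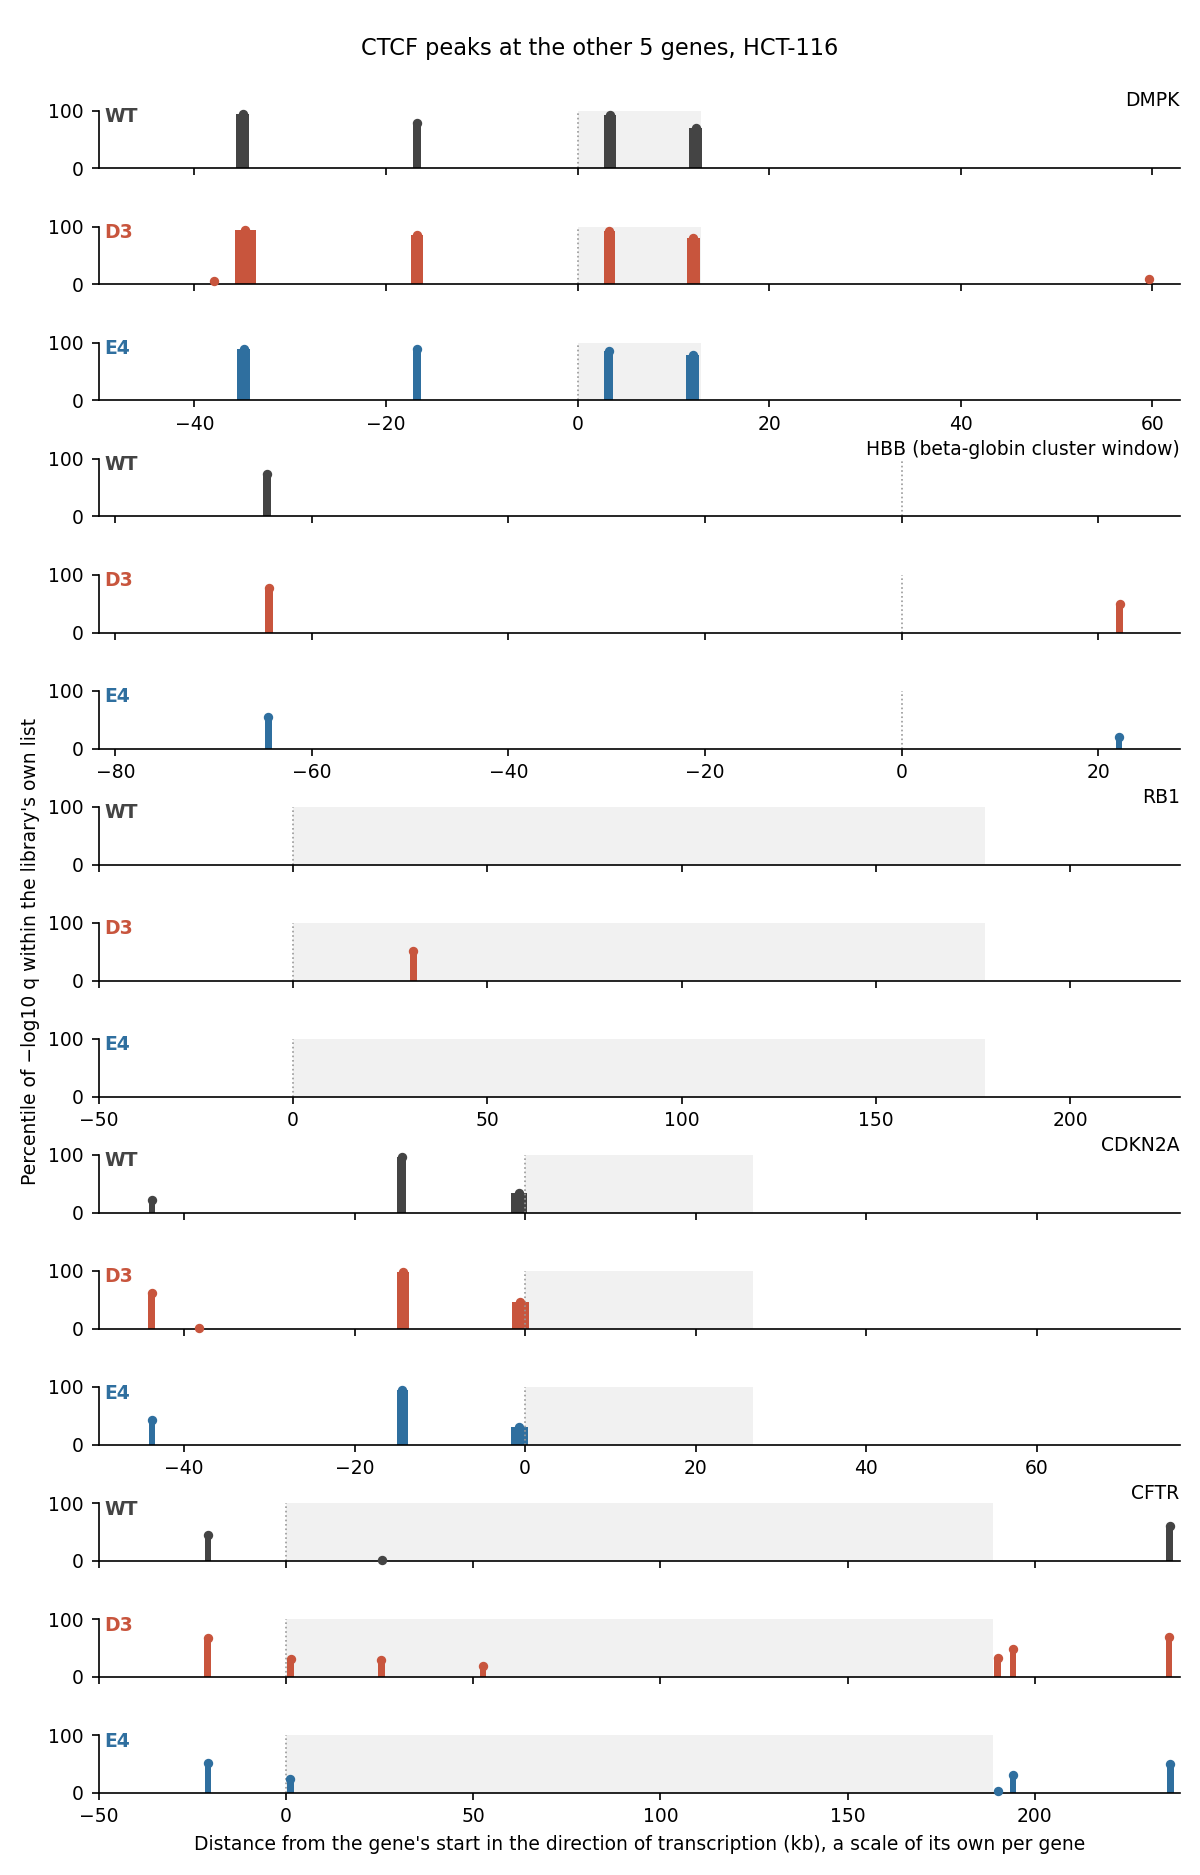
CTCF peaks of WT, D3 and E4 at DMPK, the beta-globin cluster, RB1, CDKN2A and CFTR, with 50 kb on either side except at the cluster. The x axis is the distance from the gene's start in kb, the height is the percentile of the peak's −log10 q within its own list, a dot marks the top of each bar, short peaks are drawn wider than they are, and grey is the gene body. The 3′ HS1 peak 22.2 kb after the HBB start and the CFTR peaks at 190 and 194 kb are present in D3 and E4 and missing from WT.

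The 2 tumour suppressor genes differed from each other. RB1, which encodes the retinoblastoma protein that restrains entry into the cell cycle, had no peak at its promoter in any library and none at the imprinted CpG island inside the gene. Its window of 198 kb held a single region, chr13:48908556-48909101, 30.9 kb past the start and 12.6 kb from the island. It was called in D3 alone, at the 51.4th percentile, where the fold was 6.98 and the −log10 q 9.03, and the nearest peaks of E4 and WT were 101 kb away. Of D3 peaks in the same decile 5.90% were found in D3 alone. The peak stood at the lower edge of that decile, and in the decile just below the share was 17.7%. With 50 kb on either side no further region appeared at RB1.

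CDKN2A encodes the cell cycle inhibitor p16INK4a and, from an outer start, p14ARF, which stabilises p53. A region over the outer start, chr9:21994047-21996166, was called in all 3 lists. It was broad and of low to middle rank, with 1938 bp at the 34.6th percentile in WT, 2023 bp at the 45.5th in D3 and 1900 bp at the 30.7th in E4. Its peaks reached 1676 bp, 1579 bp and 1624 bp upstream of the start used here, and the RefSeq gene on GRCh38.p14 is 833 bp longer than the body used here. No peak of any library lay at the p16INK4a start or at the described boundary upstream of it. The 50 kb window added the promoter of CDKN2B, the neighbouring inhibitor gene. Its region, chr9:22008063-22009553, had the highest D3 and WT ranks of all 6 windows, the 97.5th percentile of D3 and the 96.6th of WT, and the 95.4th of E4. A region 43.8 kb upstream of CDKN2A, chr9:22037860-22038701, was called in all 3 lists at the 21.6th percentile of WT, the 61.0th of D3 and the 42.3rd of E4.

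Over the 6 windows, 7 of 18 regions were called in all 3 lists, beside 53.9% of the regions of the whole genome. D3 alone had 5 (26.1% over the genome), D3 and E4 without WT had 4 (9.31%), and D3 and WT without E4 had 2 (6.62%). None of the 18 was called in E4 and WT alone (0.216%), WT alone (2.37%) or E4 alone (1.45%). D3 overlapped 9 of 9 WT peaks (95.9% over the genome) and 11 of 11 E4 peaks (97.5%), and E4 overlapped 7 of 9 WT peaks (85.7%). With so few peaks these shares do not set the 6 genes apart from the genome. The median percentile of the members' peaks was 62.2 for the 9 peaks of WT, 47.2 for the 18 of D3 and 32.2 for the 11 of E4, where the median of each whole list is 50.0. With 50 kb around the genes, 14 of 28 regions were called in all 3 lists, and all 10 added regions were called either in all 3 lists (7) or in D3 alone (3). The 3 added D3 peaks, chr19:46226007-46226356 and chr19:46323635-46324013 around DMPK and chr9:22032598-22032864 upstream of CDKN2A, stood at the 8.92nd, 5.11th and 1.36th percentile. The numbers of peaks with 50 kb were 28 in D3, 18 in E4 and 16 in WT.

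**Figure D3:**
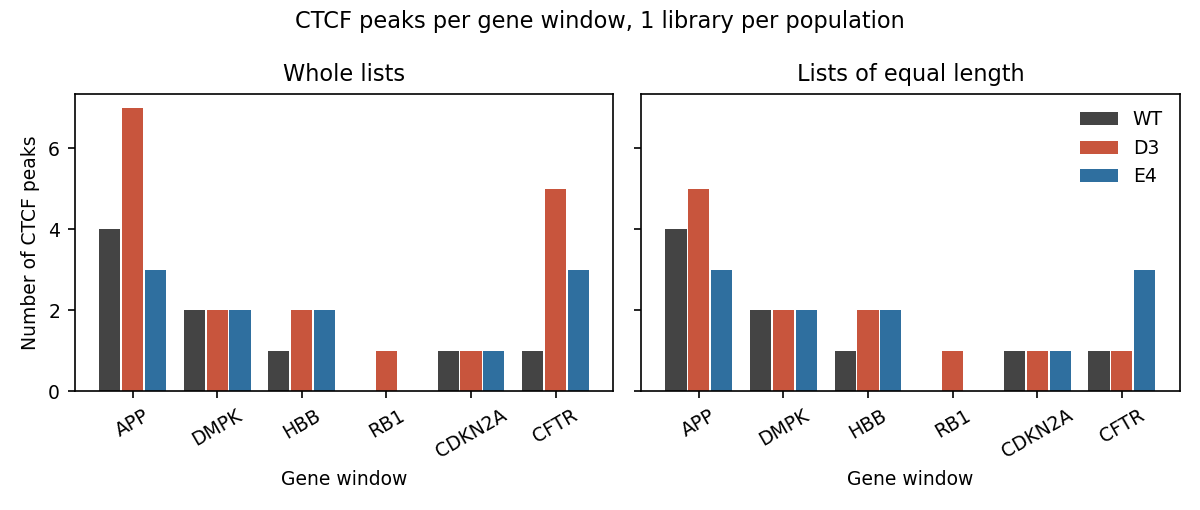
Number of CTCF peaks in each gene window (10 kb flanks, or the cluster window for HBB) in WT, D3 and E4, for whole lists on the left and for lists of 38645 peaks on the right. APP has 7, 3 and 4 peaks in D3, E4 and WT on the left and 5, 3 and 4 on the right, and the 5 D3 peaks at CFTR become 1.

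Ranks were last compared among the 32495 regions called in all 3 lists, where the lists have equal length. The central 95% of the differences between WT and D3 ran from −38.6 to 38.1 percentile points, and between WT and E4 from −38.5 to 40.4. All 14 shared regions of the 50 kb windows lay inside these ranges. The region at the 3′ end of APP ranked lower in WT than in either clone, with a difference of −23.9 points to D3 and −21.1 to E4. The region 43.8 kb upstream of CDKN2A also ranked lower in WT, with −19.6 and −18.0. The region 17.9 kb beyond APP ranked lower in WT than in D3 (−24.9) and higher than in E4 (21.1). The 5′ HS5 region of the globin cluster ranked higher in WT by 8.73 points against D3 and 23.7 against E4. The APP promoter differed by 2.91 and −5.82 points, the DMPK repeat by 0.856 and −9.48, the CFTR upstream insulator by −5.79 and −5.90, and the CDKN2B promoter by 0.329 and 1.53. Both differences use the same WT library.

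**Figure D4:**
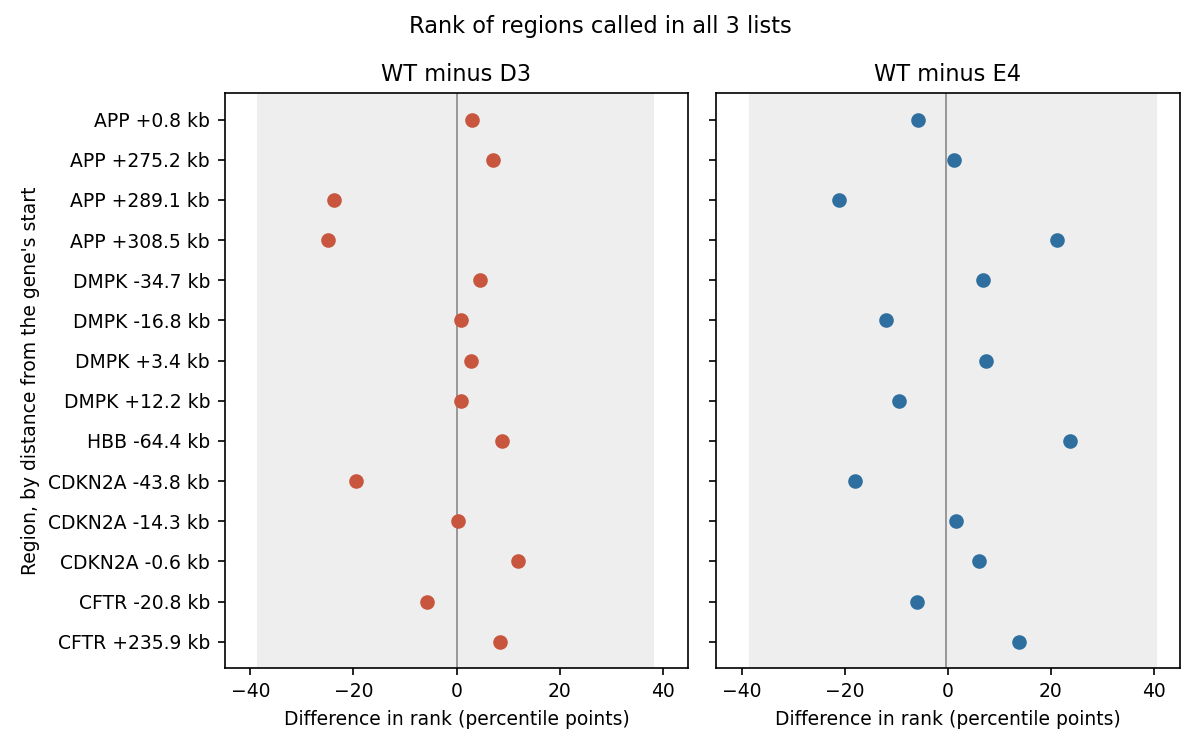
Difference in rank, in percentile points, between WT and D3 (left) and WT and E4 (right) for the 14 regions of the 50 kb windows that all 3 lists called, ranked among 32495 such regions. Points right of the line ranked higher in WT, the line is the median of all such regions and grey marks their central 95%. The points furthest from the line on the left are those at the 3′ end of APP, beyond it and 43.8 kb upstream of CDKN2A, and on the right those at 5′ HS5, at the 3′ end of APP and beyond it.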

How the data were processed

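Per the labels' protocols, formaldehyde-fixed, sonicated chromatin was precipitated with a CTCF antibody and sequenced with paired ends. Per the submitters' processing notes, CASAVA 1.8.2, Picard 2.23.1, bedtools 2.29.2, MACS2 2.2.7.1 and hg19 were used, without a role or order. The aligner and call settings are not given in the sources used here. Each library has 1 list of broad peaks, deposited by the authors with a fold enrichment (a ratio), −log10 p, −log10 q and a score, of which the score and the −log10 p were not used. Fold and −log10 q served only to describe, rank or filter within a list.

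Peaks sharing at least 1 bp were merged with Python 3.11.15 and pandas 2.3.3, after the merging was tested on simulated peaks. Gene bodies and known sites were written from general knowledge of hg19, without exon or intron assignment, and known sites are placed to about 1 kb; gene lengths and chromosomes were checked against RefSeq on GRCh38.p14, whose coordinates were not mixed with those of the files. The text names all 6 genes, every region within 10 kb, and those within 50 kb at a neighbour's promoter or a known insulator, or whose calling libraries differ. Also given, chosen after their values were seen, are the regions 17.9 kb beyond APP, 43.8 kb upstream of CDKN2A and 47.2 kb beyond CFTR. Members, lists and comparisons were chosen with earlier results of these data known. No test was possible with 1 library per population, and libraries without antibody were not used here. Alternatives were 50 kb flanks, a −log10 q of 5 or more, equal list length by −log10 q or by fold, merging within 1 kb, and 50% coverage.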

Additional observations from a re-analysis of the deposited data

Results flagged for a closer look

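The numbers of peaks in the APP window lay on opposite sides of WT in the clones, with D3 above and E4 below, and D3 and E4 differed by 4 peaks. APP was the 1 window of the 6 with this pattern, the difference was not tested because each population had 1 library, and bins of the same length showed the pattern in 19.3% of cases over the genome. With lists of equal length APP kept the pattern, with 5, 3 and 4 peaks in D3, E4 and WT, and 3.33% of bins showed it. APP was selected on its peak numbers, so neither share measures how unusual it is. Keeping only peaks whose −log10 q was at least 5 gave 5, 2 and 2, and the pattern ended because E4 equalled WT.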

How the results depend on the processing

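Of 27 alternative values for 5 results, 20 stayed within 1.5 times the main value and 7 moved further. Only the APP difference could change direction, the other results being plain counts, and it did not. The difference between D3 and E4 at CFTR, which is not among the 5 results, went from 2 to −2 with lists of equal length. The difference between D3 and E4 at APP, 4 peaks, was 2 with lists of equal length, ranked by −log10 q or by fold. With 50 kb around the genes the regions numbered 28 instead of 18, of which 14 instead of 7 were called in all 3 lists, and D3 overlapped 16 and E4 14 of 16 WT peaks. These moves follow from the larger windows and shorter lists. With a −log10 q of 5 or more D3 overlapped 5 of 5 WT peaks, since the filter left 5. No paired analysis was possible because every population has just replicate 1, and no library could be left out. As the depth is unknown, a peak missing from a list is a weak statement: at 3′ HS1 and the downstream CFTR insulator, a missing WT call does not show that CTCF was absent.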
